A study of Mus with 10 samples.

Results

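The hair shaft keratins are the structural proteins that fill the cells of the hair itself. The genes Krt31, Krt32, Krt33a, Krt33b, Krt34, Krt35, Krt81, Krt83, Krt85 and Krt86 were taken by name, as members of this family. Earlier results of these data were known when they were chosen. Of these 10 genes, 9 had a value among the 22180 genes of the table, each from 1 probe set, and Krt85 was not analysed here. They were followed over 10 Affymetrix gene arrays of skin RNA from female BALB/c mice aged 7-8 weeks. Of these, 4 arrays labelled PUVA with 7 days between light and imiquimod made up the 7-day group, 4 labelled PUVA with 3 days in between made up the 3-day group, and 2 were controls. PUVA is topical psoralen, which binds DNA and crosslinks it when activated by light, followed by UVA. Per the labels' protocols, UVA was given at 0.25 J/cm2, 2 times a week for 2 weeks, and imiquimod cream, which causes a psoriasis-like dermatitis in mice, followed the gap. The labels do not say whether the skin on these arrays had received imiquimod, nor what the control skin had received, so the groups are compared only as labelled. No genetic change is named for any group. Whether samples came from separate animals is carried by nothing but numbers in the titles, so the p-values below speak only of how far these arrays scatter, and that scatter may be technical.

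Hair keratins come in 2 kinds that must pair to make a filament. The acidic type I partners measured here are Krt31 to Krt35, and the basic type II partners are Krt81, Krt83 and Krt86. They are made by the cells that leave the hair matrix, at the base of a growing follicle, and harden into cortex and cuticle. Skin in which follicles rest makes little of them. The inner root sheath, a sleeve that moulds the new hair, has keratins of its own. In the RefSeq gene table the 6 type I genes follow one another in the order Krt33a, Krt33b, Krt34, Krt31, Krt32 and Krt35, and the 3 type II genes in the order Krt81, Krt86 and Krt83, with no other protein-coding gene between them. Neighbours in these clusters are close copies of each other, and how far 1 probe set responds to several of them was not tested. The files and tables used here hold no sequences of these genes.

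Each array had a median log2 value of 5.83 to 5.86, and the number of arrays limits the precision. Most of the epidermal keratins measured were bright, which goes with the skin label. Krt10, of the upper epidermal layers, had 12.66 to 12.81 in the 7-day group and 12.64 to 12.79 in the 3-day group. In the control group Krt10 had 12.67 to 12.76. Krt2 was an exception, with 4.92 to 5.41 in the 7-day group and 5.02 to 5.28 in the 3-day group. In the control group Krt2 had 5.40 to 5.67, and all its values lay below the array medians. Krt5 was not analysed. The control arrays stood apart from each other in the hair genes, which was noticed in the data and is not named by the labels. The number in the title of control replicate 2 lies well above those of all other arrays. What these numbers stand for is not given. The mean log2 value over the 9 hair shaft keratins was 5.30 to 5.41 on the 7-day arrays, 5.18 to 5.40 on the 3-day arrays, 5.52 on control replicate 1 and 6.53 on control replicate 2. The results of the 9 genes against control, and the medians of the other hair gene lists, are therefore given with both controls and with each alone. Between 0 and 2 of the 9 genes, Krt31 and Krt86 where any, lay below the lower quartile of all genes on an array. No background measure was used here, so a dim gene's differences may be understated.

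All 9 hair shaft keratins had a lower mean in both PUVA groups than in control skin, and in all 9 the highest of the 10 values was that of control replicate 2. Over all genes, control replicate 2 was the highest array in 11.5%. In 5 of the 9 genes (Krt33a, Krt33b, Krt34, Krt35 and Krt83) all 8 PUVA arrays lay below both controls, against 2.22% of all genes. In the other 4 genes, control replicate 1 lay within the range of the PUVA arrays, as it did in 82.5% of all genes. The 9 genes share the same arrays and move together, so these counts are not 9 independent observations. In whole skin, fewer hair-forming cells and less keratin RNA per cell cannot be told apart.

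Of the type I genes, Krt35 is, in human hair, among the first hair keratins made as cells leave the matrix. Its log2 values were 5.13, 5.22, 5.23 and 5.25 on the 7-day arrays, 5.14, 5.10, 5.49 and 5.38 on the 3-day arrays, and 5.50 and 7.25 on control replicates 1 and 2. The PUVA arrays lay close together, control replicate 1 stood barely above the highest of them, and control replicate 2 stood apart by 1.75. Krt32, a cuticle keratin in human hair, had 5.69, 6.01, 5.90 and 6.08 in the 7-day group, 5.70, 5.78, 5.88 and 5.99 in the 3-day group, and 6.07 and 6.57 in the control group. Here control replicate 1 fell within the range of the 7-day arrays and only control replicate 2 lay above them.

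The remaining type I genes are keratins of the cortex, the bulk of the shaft, in human hair. Krt33a differed most between the controls. It had 5.19, 5.001, 5.21 and 5.16 on the 7-day arrays, 5.04, 4.81, 5.07 and 5.07 on the 3-day arrays, and 5.40 and 7.43 on the controls, so that control replicate 2 was 4.08-fold above control replicate 1. Its neighbour Krt33b had 4.91, 5.05, 5.23 and 5.20 in the 7-day group, 5.56, 5.03, 5.15 and 5.02 in the 3-day group, and 5.62 and 6.77 in the control group. One 3-day array came within the reach of control replicate 1, and no array came near control replicate 2. Krt34 had 6.04, 6.23, 6.07 and 5.99 in the 7-day group, 6.08, 5.90, 6.12 and 5.74 in the 3-day group, and 6.33 and 7.12 in the control group. For this gene both controls lay above all PUVA arrays. Krt31 had 4.26, 4.27, 4.68 and 4.14 in the 7-day group, 4.15, 4.14, 4.06 and 4.35 in the 3-day group, and 4.24 and 5.40 in the control group. Control replicate 1 sat in the middle of the PUVA values of Krt31, with 4 of the 8 PUVA arrays below it.

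The type II genes are cortex keratins in human hair. Krt83 had 6.28, 6.26, 6.06 and 5.96 on the 7-day arrays, 6.11, 6.45, 6.37 and 6.31 on the 3-day arrays, and 6.47 and 6.94 on the controls. Both controls were above all PUVA arrays, control replicate 1 by a margin far smaller than the spread of the 3-day arrays. Krt86 had 4.57, 4.41, 4.53 and 4.61 in the 7-day group, 4.59, 4.13, 4.61 and 4.43 in the 3-day group, and 4.58 and 5.22 in the control group. Krt81 had 5.66, 5.69, 5.76 and 5.81 in the 7-day group, 5.54, 5.34, 5.85 and 5.33 in the 3-day group, and 5.50 and 6.10 in the control group. In Krt86 and Krt81 control replicate 1 lay among the PUVA arrays, and in Krt81 it lay below all 4 arrays of the 7-day group.

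**Figure D1:**
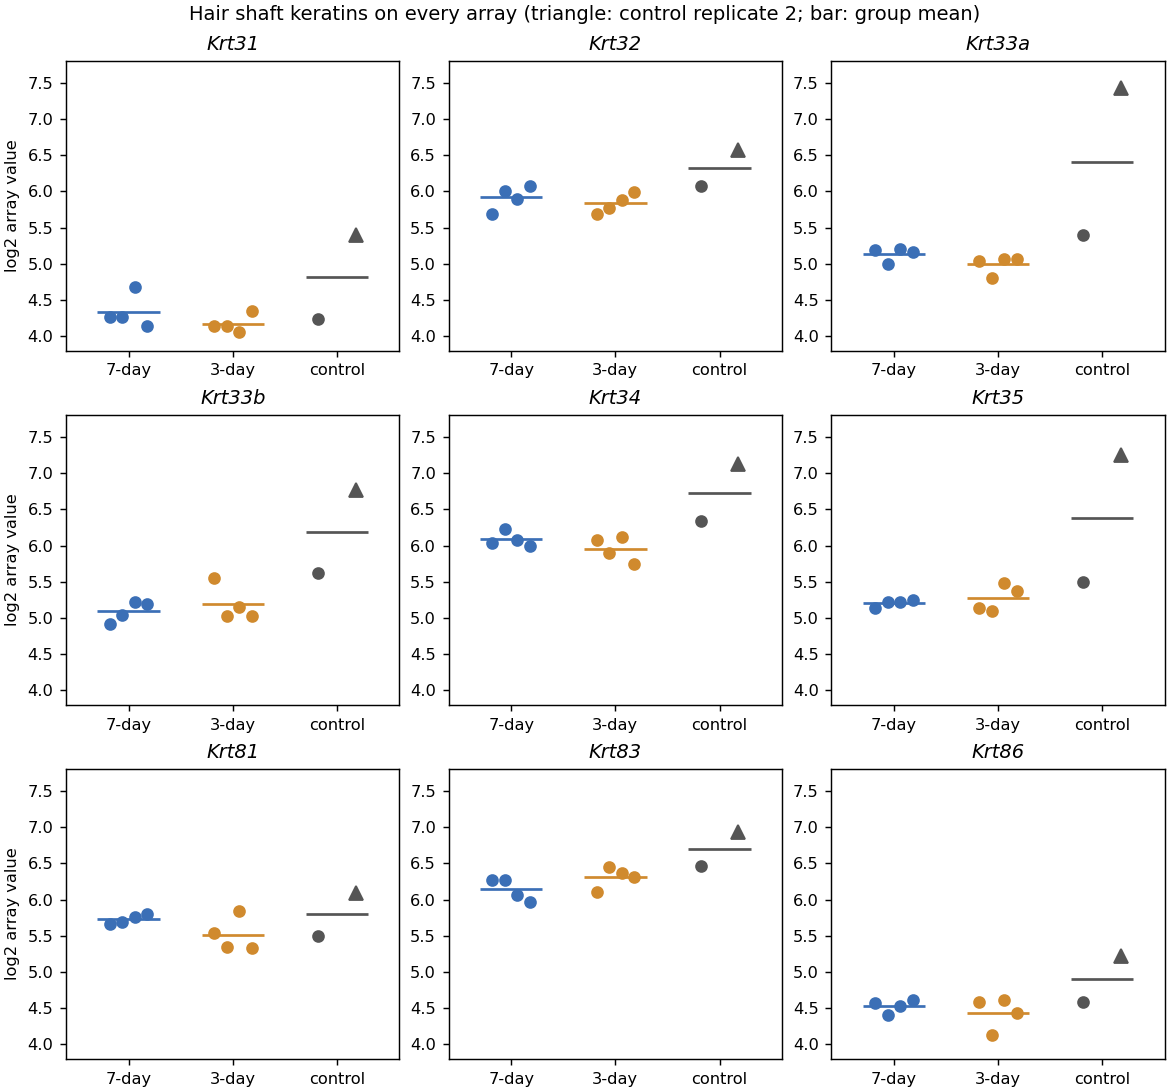
Each panel shows the log2 array value (y axis) of 1 hair shaft keratin on the 4 arrays of the 7-day group, the 4 of the 3-day group and the 2 controls, with bars at the group means; the triangle is control replicate 2 and the control circle is control replicate 1. In all 9 panels the triangle is the highest point, while control replicate 1 lies within the range of the 8 PUVA arrays in 4 panels and just above it in 5.

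The spread restates the same split, as an SD of 2 controls reflects only the distance between them. Over the 8 PUVA arrays the SD of a member was between 0.13 and 0.20. Between the controls it was 0.33 to 1.44, larger in all 9 genes than in either PUVA group. In 7 of the 9 genes the distance from control replicate 2 down to the next highest array exceeded the whole range of the 8 PUVA arrays. The other 2 were Krt81 and Krt83. Krt81 had the smallest such distance, 0.25, and Krt33a the largest, 2.03. The shares of all genes with these patterns were not counted, so the counts show nothing particular to these 9 genes.

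The first comparison asks how the shaft keratins of skin with a 7-day gap differed from those of control skin. All 9 lay lower in the 7-day group, with a median log2 change of -0.56, where the median over all genes was 0.02 and 45% of genes lay lower. The widest differences were in Krt33a, Krt35 and Krt33b. Krt33a averaged 5.14 ± 0.10 (SD, n = 4) in the 7-day group and 6.41 ± 1.44 (SD, n = 2) in the control group, a log2 change of -1.27 ± 0.40 (SE). Krt35 averaged 5.21 ± 0.05 in the 7-day group and 6.38 ± 1.24 in the control group, a log2 change of -1.17 ± 0.35 (SE), and Krt33b had a log2 change of -1.10 ± 0.26 (SE). None of the 9 passed an adjusted p of 0.05 in limma, where the lowest was 0.748 and 0% of all genes passed. At an unadjusted limma p under 0.05, 6 of the 9 were lower, against 2.68% of all genes lower and 5.89% in either direction. All 4 arrays of the 7-day group lay below both controls in 5 of the 9, against 5.85% of all genes, and above both in 0 of the 9, against 8.56%. The fit takes 1 spread per gene from all 3 groups. In 6 of the 9 genes, all but Krt32, Krt81 and Krt83, the 2 controls held more of the residual sum of squares than the 8 PUVA arrays did. In all 9 genes the SD between the controls was above that of either PUVA group. As far as 2 controls can show, the errors of differences from control are therefore understated in all 9. Those of differences between the PUVA groups are too large.

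Each control alone gave a different picture. Against control replicate 1 the median change of the 9 genes in the 7-day group was -0.25, with 7 below 0, and Krt31 and Krt81 had values of 0.10 and 0.23. Against control replicate 2 the median was -1.04, with all 9 below 0. There Krt33a, Krt35, Krt33b, Krt34 and Krt31 passed the threshold in limma (adjusted p = 2.91e-05, 0.00014, 0.00434, 0.0134 and 0.0323), as did 0.978% of all genes. Those p-values assume that the lone control varies like the PUVA arrays, which the 2 controls did not do, and they set a single array against 4.

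The second comparison asks the same of skin with a 3-day gap. Again all 9 lay lower than in control skin, with a median log2 change of -0.65, against a median of 0.00 over all genes, of which 49.4% lay lower. Krt33a averaged 4.996 ± 0.13 (SD, n = 4) in the 3-day group and 6.41 ± 1.44 (SD, n = 2) in the control group, a log2 change of -1.41 ± 0.40 (SE). Krt35 had a log2 change of -1.10 ± 0.35 (SE), Krt33b of -1.003 ± 0.26 (SE) and Krt34 of -0.77 ± 0.19 (SE). None of the 9 passed an adjusted p of 0.05 in limma, where the lowest was 0.269 for Krt34 and 0.00451% of all genes passed. At an unadjusted limma p under 0.05, 8 of the 9 were lower, Krt81 being the exception, against 4.07% of all genes lower and 9.74% in either direction. The 4 arrays of the 3-day group lay below both controls in 6 of the 9, against 7.89% of all genes. These values share the control arrays with those of the 7-day group, so both rest on the same 2 reference samples.

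Against control replicate 1 alone, the median change in the 3-day group was -0.22, with 8 of 9 below 0. Krt33b had -0.43, Krt33a -0.40 and Krt34 -0.38 there, Krt81 had 0.02, and the lowest adjusted p in limma was 0.673. Against control replicate 2 alone the median was -1.17, and Krt33a, Krt35, Krt33b, Krt34 and Krt31 passed the threshold, as did 0.821% of all genes, with log2 changes between -2.43 for Krt33a and -1.17 for Krt34. In the mean of both PUVA groups against control, all 9 again lay lower, with a median of -0.56. The lowest adjusted p in limma was 0.441, with 0% of all genes passing. At an unadjusted p under 0.05, 8 of the 9 were lower, against 3.39% of all genes lower and 7.32% in either direction. With control replicate 1 alone that median was -0.25 and with control replicate 2 alone -1.10.

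**Figure D2:**
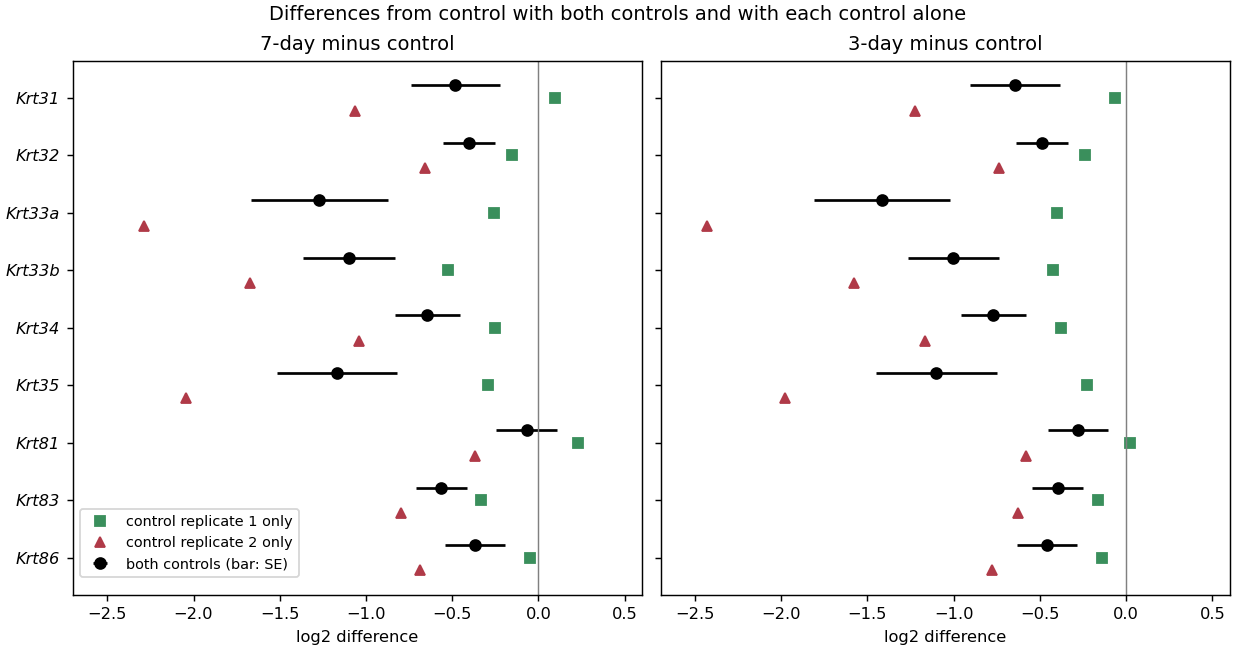
The x axis is the log2 difference of the 7-day group (left) and of the 3-day group (right) from control for each of the 9 genes; black circles use both controls with SE bars, squares use control replicate 1 only and triangles control replicate 2 only. In every row the triangle lies farthest left; Krt33a is at -2.28 and -2.43 against control replicate 2 and at -0.25 and -0.40 against control replicate 1.

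The third comparison was between the gaps, with no control array in the difference. The hair shaft keratins lay at similar values in both groups: 6 of 9 were higher in the 7-day group and 3 lower, with a median log2 difference of 0.09, beside 0.01 over all genes. The 9 differences were between 0.07 and 0.21 in size. Krt81 had the largest, 5.73 ± 0.07 in the 7-day group and 5.52 ± 0.24 in the 3-day group (SD, n = 4 each), a log2 difference of 0.21 with a 95% interval of -0.11 to 0.53 (limma). Krt83 had a log2 difference of -0.17 with an interval of -0.43 to 0.10. None of the 9 passed an adjusted p of 0.05 in limma (lowest 0.66, with 0.00902% of all genes passing), and 0 had an unadjusted p under 0.05, against 9.77% of all genes in either direction. In the exact two-sided permutation test over 70 assignments, which can give no p below 0.0286, the lowest p over the 9 genes was 0.114, for Krt33a. The groups overlapped in all 9 genes, where over all genes 2.95% had all 7-day arrays higher and 2.28% all lower. These intervals carry the spread between the controls. For Krt33a the interval was -0.57 to 0.86 with both controls and -0.04 to 0.33 without control replicate 2, and equality of the PUVA groups was not shown by either. The order of the group means was control, 7-day and 3-day from high to low in 6 genes and control, 3-day and 7-day in 3, with the PUVA groups as neighbours that did not differ beyond their spread.

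Other hair keratins did not all go the same way. Of the 6 measured (Krt36, Krt39, Krt40, Krt82, Krt84 and Krt87), 4 lay lower and 2 higher than control in the 7-day group, and likewise in the 3-day group. None passed an adjusted p of 0.05 in limma in any comparison. At an unadjusted limma p under 0.05 there were 0 in the 7-day group, and 3 lower and 1 higher in the 3-day group. Over all genes 5.89% differed in either direction in the 7-day group and 9.74% in the 3-day group, with 4.07% lower in the latter. Against control replicate 1 alone their medians were 0.07 at 7 days and -0.05 at 3 days, and against control replicate 2 alone -0.27 and -0.51. Krt87, a type II gene of the same cluster, had 2.83, 3.27, 3.58 and 3.14 on the 7-day arrays, 2.77, 3.20, 3.39 and 3.72 on the 3-day arrays, and 3.03 and 5.45 on the controls. Control replicate 1 lay among the PUVA arrays and control replicate 2 far above them, as in Krt31. Krt82, a cuticle keratin in human hair, had 4.99, 5.12, 5.31 and 4.97 in the 7-day group, 4.71, 4.47, 4.99 and 4.56 in the 3-day group, and 5.21 and 5.76 in the control group. Its 3-day values lay below both controls, with a log2 change of -0.80 ± 0.18 (SE, adjusted p = 0.223 in limma), or -0.53 against control replicate 1 alone and -1.08 against control replicate 2 alone.

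Between the PUVA groups none of these 6 genes passed in limma, where the lowest adjusted p was that of Krt40. Krt40 had 5.26, 5.65, 5.44 and 5.53 on the 7-day arrays and 5.02, 4.98, 5.22 and 5.003 on the 3-day arrays. Its groups did not overlap, and neither did those of Krt39, which makes 2 of 6 genes with higher 7-day values, against 2.95% of all genes. The log2 difference of Krt40 was 0.41 ± 0.09 (SE, adjusted p = 0.237 in limma). Krt36, the neighbour of Krt35, ran the other way against control, with 5.95, 5.42, 5.77 and 5.602 in the 7-day group, 6.46, 6.15, 5.90 and 6.21 in the 3-day group, and 5.14 and 5.77 in the control group. All 3-day arrays lay above both controls, as in 9.52% of all genes, with a log2 change of 0.73 ± 0.20 (SE, adjusted p = 0.319 in limma), or 1.04 against control replicate 1 alone and 0.41 against control replicate 2 alone. Krt39 differed from control by -0.19 ± 0.13 (log2, SE) at 7 days and -0.37 ± 0.13 at 3 days. Krt84 differed by -0.15 ± 0.19 at 7 days and 0.08 ± 0.19 at 3 days.

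The regulators of shaft formation, 11 transcription factors and the BMP receptor gene Bmpr1a, were all measured. Of these 12 genes, 10 lay lower than control in the 7-day group and 11 in the 3-day group, with medians of -0.14 and -0.31, and none passed in limma (lowest adjusted p = 0.762 and 0.334). At an unadjusted limma p under 0.05, 3 were lower in the 7-day group and 2 in the 3-day group. The shares of all genes that were lower were 2.68% and 4.07%. Against control replicate 1 alone their medians were 0.00 at 7 days and -0.16 at 3 days, with 6 and 9 of 12 below 0, and against control replicate 2 alone -0.39 and -0.48. Hoxc13, a homeobox factor that activates hair keratin genes, had 6.27, 6.70, 6.75 and 6.57 on the 7-day arrays, 6.05, 6.52, 7.01 and 6.59 on the 3-day arrays, and 6.87 and 7.63 on the controls. Lef1, through which Wnt signals drive shaft differentiation, had 6.89, 6.83, 7.35 and 7.24 in the 7-day group, 6.81, 7.30, 7.42 and 7.15 in the 3-day group, and 7.13 and 8.65 in the control group. In both genes control replicate 2 was the highest array and control replicate 1 lay within the range of the PUVA arrays. Foxn1, the factor missing in nude mice, had log2 changes of -0.12 ± 0.20 and -0.28 ± 0.20 (SE), and its control replicate 2, at 7.25, did not stand apart from the highest 7-day array at 7.29.

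Of 8 proteins that work with keratins in the shaft, 5 lay lower than control in the 7-day group and 6 in the 3-day group, with medians of -0.22 and -0.30, and none passed in limma (lowest adjusted p = 0.763 and 0.374). At an unadjusted limma p under 0.05, 2 were lower in the 7-day group, and 3 were lower and 1 higher in the 3-day group. Over all genes 2.68% and 4.07% were lower, and 5.89% and 9.74% differed in either direction. Padi3, an enzyme that modifies hair proteins by citrullination, had 4.46, 4.45, 4.49 and 4.55 on the 7-day arrays, 4.31, 4.57, 4.51 and 4.44 on the 3-day arrays, and 4.54 and 6.82 on the controls. Control replicate 1 lay within the range of the PUVA arrays and control replicate 2 far above them. S100a3, a calcium-binding protein of the hair cuticle, had log2 changes of -0.88 ± 0.28 and -0.93 ± 0.28 (SE), with controls at 5.34 and 6.63. Dsg4, a desmosomal cadherin of the shaft, had 6.91 on control replicate 2 and 4.44 on control replicate 1, and 1 array of the 3-day group, replicate 3, stood at 5.87 beside 4.02 to 4.26 on the other three. Of 11 keratin-associated protein genes, which crosslink keratin filaments, 10 lay lower in each PUVA group, with a median of -0.66 at 7 days and -0.81 at 3 days, and none past the threshold (lowest adjusted p = 0.71 and 0.117 in limma). At an unadjusted limma p under 0.05, 7 were lower in the 7-day group and 9 in the 3-day group. The shares of all genes were again 2.68% and 4.07%. Against control replicate 1 alone their medians were -0.34 at 7 days and -0.27 at 3 days, and against control replicate 2 alone -1.17 and -1.32. The medians of the 8 partner genes were -0.05 and -0.06 against control replicate 1 alone, and -0.27 and -0.35 against control replicate 2 alone.

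By their medians, the inner root sheath genes, 8 keratins and trichohyalin, differed more between controls and PUVA arrays than the shaft keratins, for each control. Not every gene did so. In 2 of the 9, control replicate 1 lay within the range of the PUVA arrays. The smallest excess over the mean of the 8 PUVA arrays was 0.03 on control replicate 1 and 0.07 on control replicate 2. All 9 lay lower in each PUVA group, with a median of -2.80 at 7 days and -2.74 at 3 days, and none passed in limma (lowest adjusted p = 0.444 and 0.086). At an unadjusted limma p under 0.05, 8 of the 9 were lower in each PUVA group. Over all genes 2.68% were lower in the 7-day group and 4.07% in the 3-day group. Against control replicate 1 alone the medians were -1.15 at 7 days and -1.08 at 3 days. Against control replicate 2 alone they were -4.46 and -4.40. Krt25 had 4.80, 4.62, 4.63 and 4.85 on the 7-day arrays, 5.05, 5.10, 4.79 and 4.80 on the 3-day arrays, and 6.62 and 10.54 on the controls. Control replicate 1 exceeded the mean of the 8 PUVA arrays by a median of 1.11 in these 9 genes, and by a median of 0.25 in the hair shaft keratins. Control replicate 2 exceeded it by medians of 4.43 and 1.10. The difference between the 2 gene lists was not tested.

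**Figure D3:**
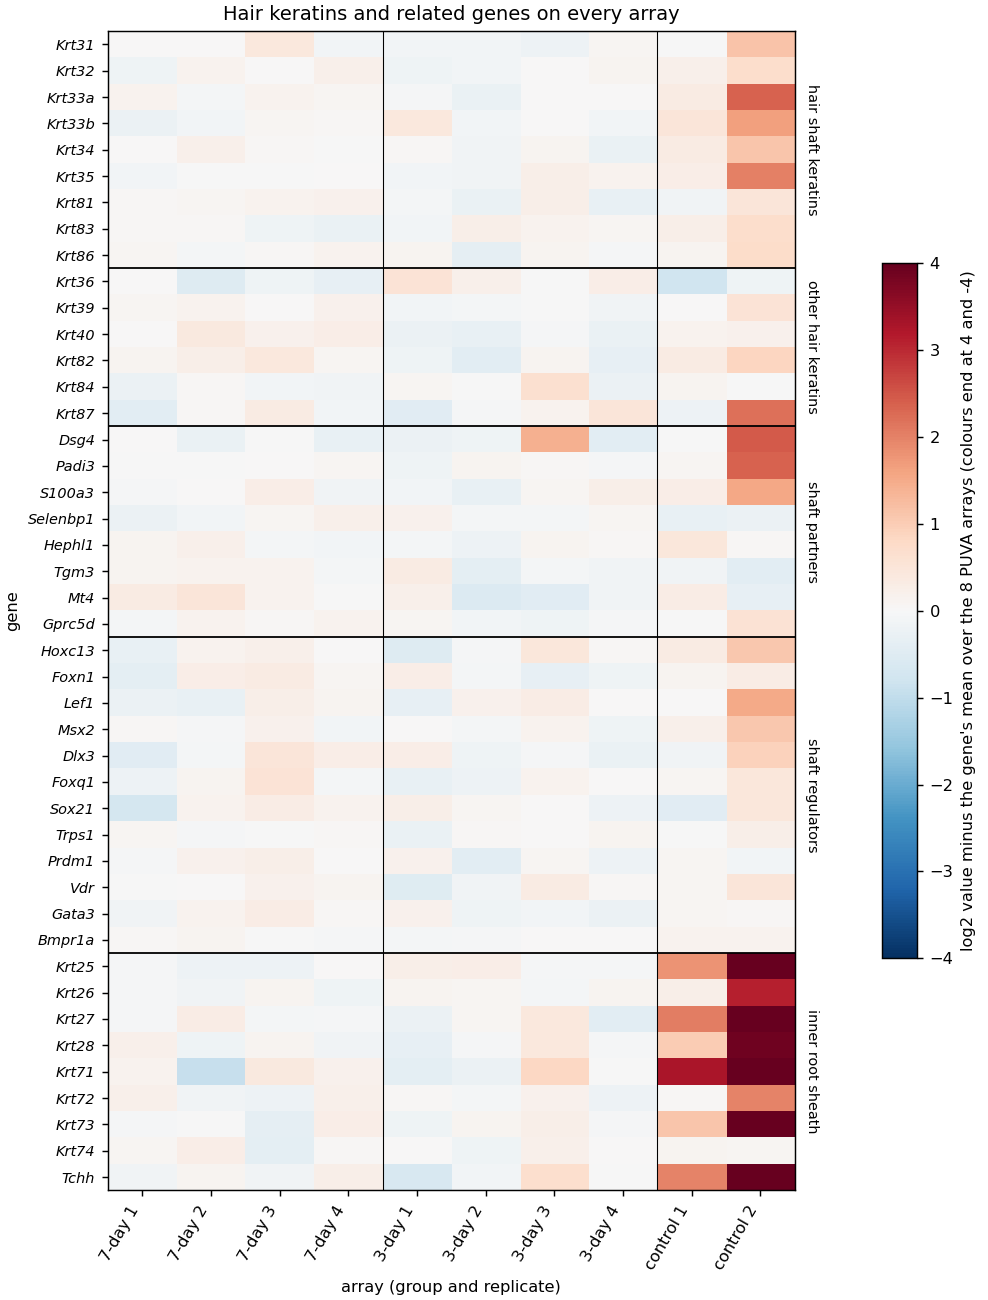
Rows are genes in 5 lists, columns are the 10 arrays, and colour gives the log2 value minus the gene's mean over the 8 PUVA arrays, with the colours ending at 4 and -4. Control replicate 2 is red in all 9 hair shaft keratins and darkest among the inner root sheath genes, up to 6.71 in Krt71, while control replicate 1 is clearly red only among the inner root sheath genes, where Krt71 is 3.28 above the PUVA mean.

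Markers of some other cells moved along with the hair genes on control replicate 2, and those of others did not. Over all genes, 47.8% had a higher value there than on control replicate 1. All 7 measured proliferation genes had a higher value on control replicate 2 than on control replicate 1, with a median difference of 0.52, and their mean was 6.94 to 7.20 on the 7-day arrays, 7.17 to 7.25 on the 3-day arrays, and 7.29 and 7.92 on the controls. All 6 melanocyte genes were higher too, with a median difference of 1.53, and a mean of 5.73 to 5.94 in the 7-day group, 5.64 to 6.56 in the 3-day group, and 6.11 and 7.59 in the control group. Epidermal keratins were lower on control replicate 2 in 7 of 7 cases, with a median of -0.23. Fibroblast genes were higher in 5 of 6 cases, with a median of 0.68, and T cell genes were lower in 4 of 4, with a median of -0.31. Also higher on control replicate 2 were 4 of 5 macrophage, 4 of 5 bulge and 5 of 8 dermal papilla genes. Fewer were higher among companion and outer root sheath (2 of 6), endothelial (1 of 4) and skeletal muscle genes (1 of 4). Of the sebocyte and adipocyte genes, 0 of 5 and 0 of 4 were higher. The hair shaft keratins were higher there in 9 of 9 cases, with a median of 0.79, or 1.73-fold, and 4 of the 9 by more than 1 log2 unit, against 0.604% of all genes. The lowest value of any proliferation gene was 4.91, and of any melanocyte gene 3.45, both on a 7-day array. The part of these cells in the hair keratin differences was not tested.

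**Figure D4:**
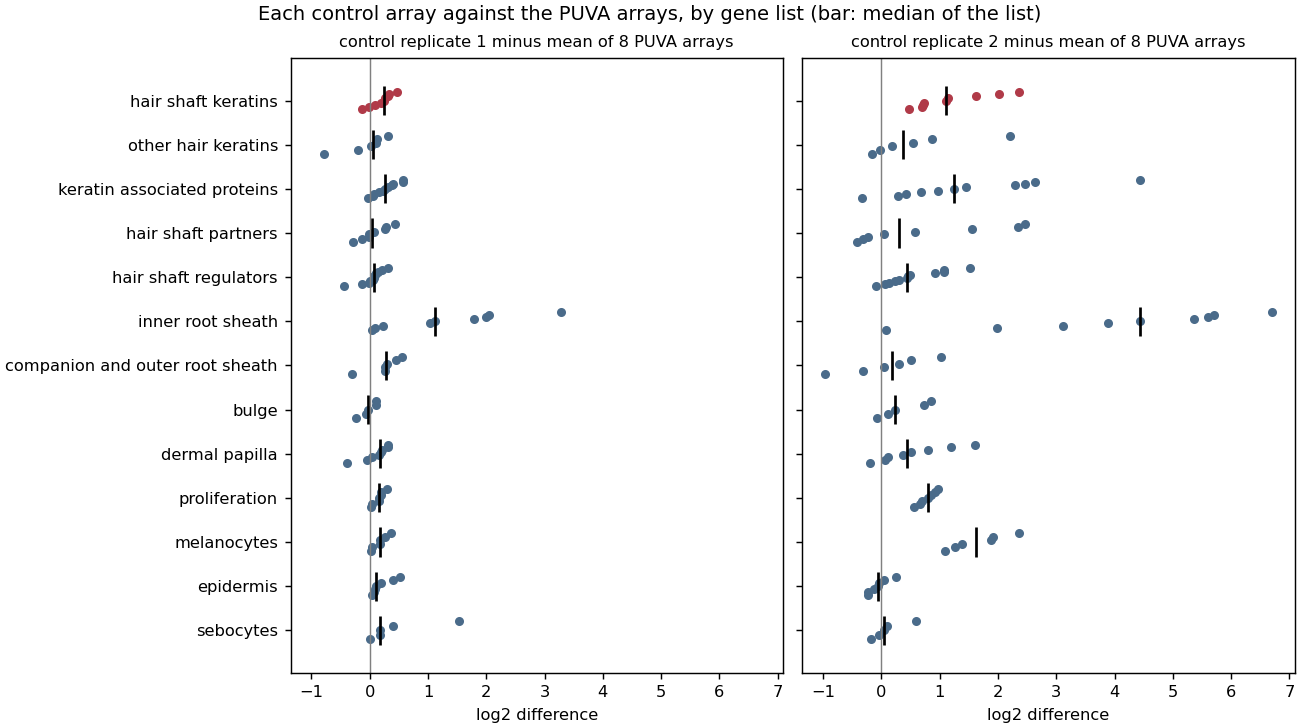
Points are genes of 13 lists (y axis), placed by the log2 difference between control replicate 1 (left) or control replicate 2 (right) and the mean of the 8 PUVA arrays, with black bars at list medians. The hair shaft keratins, in red, have medians of 0.25 and 1.10, and inner root sheath genes reach farthest right in both panels. The epidermal list has medians of 0.11 and -0.05, but in the left panel all 7 of its genes lie above 0, up to 0.52. The hair shaft keratins reach 0.47 there.

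The genes whose values over the 10 arrays were most like the mean of the 9 members were Msx2, Per3, Gm11568, H2bc12, Bach2, Slc39a10, Gm4559 and H2ac10. Likeness was the root mean square difference between centred log2 profiles over 10 arrays, which was 0.09 for Msx2, a homeobox factor of the hair matrix, and 0.12 for H2ac10, among 1635 genes with a range of at least 1. The mean profile of the members itself spanned 1.35. Per3, a circadian clock gene, had 7.52, 7.72, 7.74 and 7.74 on the 7-day arrays, 7.65, 7.38, 7.54 and 7.53 on the 3-day arrays, and 7.86 and 9.001 on the controls. Without control replicate 2 the members' profile spanned 0.34 and the profiles of these 8 genes 0.29 to 0.48. Over the same 1635 genes and the remaining 9 arrays, the 8 genes then ranked between 3 and 20, and 3 of them were again among the 8 most alike. These 1635 genes were taken by their range over all 10 arrays, and the 8 reached a range of 1 only through control replicate 2. That ranking therefore cannot show whether the likeness holds without this array. With the range taken over the 9 arrays, 1357 genes were compared and 0 of the 8 recurred. Their ranges below 1 had fixed that outcome in advance.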

How the data were processed

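RNA of 10 skin samples was labelled with the Affymetrix WT PLUS kit, per the labels' protocols. The deposited table holds 41345 probe sets, which the authors deposited and which was read as log2. The normalization is not given in the sources used here, nor are software or log base. A base of 2 was taken from how far the values spread. Of the probe sets, 23521 had 1 symbol in the platform annotation, 1814 had several and 16010 had no listed gene here. The probe set with the highest mean was kept for each of 22180 genes, with no filter on dim signals. Gene names and neighbours came from RefSeq (assembly GRCm38.p6), in which 21994 genes were found by Entrez identifier. No coordinates are given, as the build behind the array was not named.

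One limma model (version 3.58.1, R 4.3.3) gave each group of the 10 arrays a mean (7 residual and 3.51 prior degrees of freedom, two-sided, Benjamini-Hochberg over all genes per comparison). The limma step was tested on simulated data for the 3-day group against control, with every array given a spread taken from the PUVA groups. That test does not cover controls that scatter more than the PUVA arrays. The members and lists were chosen with earlier results of these data known. Named genes were the members, all other hair keratins, the first 3 measured of each list used, and the 8 most alike; Krt71 was named after its values were seen. Alternatives are in the closing section.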

Additional observations from a re-analysis of the deposited data

Results flagged for a closer look

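In groups of 4 arrays, a single array far from the other three was looked for in 74 named genes, 148 groups in all, of which chance alone flags about 1 in 20. It was found in 7. Among the hair shaft keratins only Krt33a had one: 3-day replicate 2 stood at 4.81, below the other 3-day arrays at 5.04 to 5.07. Dsg4 had 5.87 on 3-day replicate 3, above the next at 4.26. Krt26, of the inner root sheath, had 3.42 on 3-day replicate 3, below the next at 3.58, and Krt27 had 4.54 on 7-day replicate 2, above the next at 4.18. Krt6b had 5.999 on 3-day replicate 2, below the next at 6.88. Cd68, a macrophage gene, had 11.00 on 3-day replicate 2, above the next at 10.16. Per3 had 7.52 on 7-day replicate 1, below the next at 7.72.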

How the results depend on the processing

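No member passed the threshold in any comparison under another normalization, variance model, filter, probe set rule or choice of arrays, apart from leaving out control replicate 1. That setting leaves a lone control, singled out by these same genes, and is not used as support. The medians of the members kept their sign throughout. Leaving out 1 array at a time moved them between -1.04 and -0.25 (7-day against control), -1.17 and -0.22 (3-day), and -1.10 and -0.25 (both), the extremes being without control replicates 1 and 2. Counts of called genes ran from 0 to 217, 1 to 182 and 0 to 226 in these comparisons, and from 0 to 10 between the PUVA groups. With array weights they were 3 (3-day against control) and 6 (7-day against 3-day); the count between the PUVA groups was 1 with only the groups compared and 1 without the lowest 30% of genes, a filter that left 7 of 9 members. Members with PUVA arrays below every control ranged from 5 to 9 (7-day), 6 to 9 (3-day) and 5 to 9 (both). This alternative was chosen after seeing the data. With all 10 arrays the shares over all genes were 5.85%, 7.89% and 2.22%. The 9 came without control replicate 1 and was fixed in advance, as control replicate 2 was the highest array in all 9 members. Over all genes control replicate 2 was the highest of the 10 arrays in 11.5%. Single-array removal turned signs of uncalled members: Krt31 ran from -1.06 to 0.10 (7-day) and -1.14 to 0.017 (both), Krt81 from -0.37 to 0.23 (7-day), -0.58 to 0.021 (3-day) and -0.47 to 0.13 (both), and between the PUVA groups Krt33b ran from -0.15 to 0.028, Krt35 from -0.13 to 0.0020 and Krt86 from -0.013 to 0.15. Their cause was not tested. No paired analysis was possible because replicate numbers follow sample order and pair nothing. The values of the other lists with each control alone, and likeness without control replicate 2, were added after seeing the data. The 2 controls limit the precision.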
